A study of Mus musculus with 8 samples.

Results

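The comparison described here set fetal liver stem cells that lack ADAR1 against wild-type ones, 3 Adar null arrays against 2 wild-type arrays, which are 5 of the 8 arrays of the study. They were chosen by their labelled genotype. The cells were haematopoietic stem cells of the mouse strain C57/B6, purified from fetal liver as Lin-Sca+Kit+ cells, that is without surface proteins of mature blood lineages and with Sca-1 and Kit. Each array held the RNA of the cells of 1 mouse. The null mice are labelled ADAR1 -/- and the wild-type mice WT, and 3 further arrays from ADAR1 +/- mice entered the estimate of the spread between arrays and the mean level by which a gene's probe set was chosen, and are described beside some of the genes. Which exons the null allele lacks, and how old the embryos were, is not given in the sources used here. All values are linear intensities of Affymetrix probe sets or differences on the log2 scale, null minus wild type, with limma's standard error.

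ADAR1 is an enzyme that turns adenosine into inosine in double-stranded RNA. Cells carry sensors, among them MDA5, RIG-I and PKR, that bind double-stranded RNA of viruses, and inosine in a cell's own RNA is known to keep MDA5 from binding it. A sensor that has bound RNA leads to the making of type I interferon, which acts through its receptor and transcription factors on promoters that hold an interferon-stimulated response element and so raises a large set of antiviral genes. PKR, when it binds double-stranded RNA, phosphorylates eIF2, which lowers translation in general and raises translation of the transcription factor ATF4.

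The 5 arrays differed in quality as well as in genotype. Probe sets above background, which is the highest of 27 Bacillus control probe sets on an array, made up 51.5% and 45.6% on the wild-type arrays and 40.0% to 46.4% on the null arrays. The 3′ to 5′ ratio of Gapdh, which rises when labelled transcripts are short, was 4.39 and 4.32 in wild type and 7.45 to 8.73 in null, without overlap, while the heterozygous arrays read 5.78, 4.78 and 8.996. The same ratio of Actb overlapped, with 0.650 and 0.645 in wild type and 0.745, 0.552 and 0.713 in null. Sex differed too: Xist was low and Eif2s3y, on the Y chromosome, high on null array 1, the reverse of both wild-type arrays. Xist read 742 and 660.5 in wild type and 34.3, 594 and 514 in null, and Eif2s3y 10.1 and 8.68 and 151, 7.01 and 8.82. The part of RNA length and of sex in the differences was not tested. Kit, one of the sort genes, read 20.2 and 11.7 in wild type and 13.3, 9.33 and 9.86 in null cells, low on all 5 arrays and overlapping between the groups; Ly6a, which encodes Sca-1, was not analysed here. Of 36 measured stem cell transcription factors, 3 were at background on both wild-type arrays and 9 on all null arrays. Among the bright ones were Lmo2 (1101 and 1077 against 699.9, 947 and 677) and Runx1 (174 and 217 against 239, 331 and 302). These 2 genes were chosen as checks of the cell type after their values were seen.

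Taking each gene by its brightest probe set, 71 of 18193 genes rose in null cells, which is a share of 0.39%, and 23 fell, 0.126%, which makes 94 in all or 0.517% (limma, Benjamini-Hochberg adjusted p under 0.05 over all 45037 probe sets, two-sided). Counted by probe set, 99 were higher (0.22%) and 48 lower (0.107%). The order was the other way without adjustment (p under 0.05), with 614 genes higher (3.37%) and 1076 lower (5.91%). The rises were large, with differences from 1.24 (Gata1) to 8.34 (Rsad2), and the falls smaller, from -1.47 (Uros) to -3.86 (Plec). All 71 genes that rose had their lowest null array above every one of the 5 wild-type and heterozygous arrays, and 18 of the 23 that fell had their highest null array below all 5. These genes were selected by their difference on the same arrays, so the separation describes the calls and adds no support. The same holds wherever the groups of a called gene are said to lie apart. Against the wild-type arrays alone, the null arrays lay without overlap higher for 9.49% of all genes and lower for 10.8%. Of the risers 49 belong to at least 1 of the lists of interferon-related genes, and 14 to none of the 58 gene lists used here. Of the 23 that fell, 18 are in none of them. Most calls rested on few arrays: 28 of the 71 rises and 1 of the 23 falls, Igsf8, passed the threshold when each of the 8 arrays was left out in turn. Without wild-type array 1 the counts were 68 higher and 96 lower, with 46 of the 71 and 8 of the 23 still called, and without wild-type array 2 they were 39 and 42. Without null array 2 they were 80 and 60, without any single heterozygous array 35 to 42 and 2 to 10, and on the 5 arrays alone 3 and 0, with 3 of the 71 kept. Leaving out heterozygous arrays did not change the differences themselves. Calls lost in that way were lost through the estimate of the spread alone.

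**Figure D1:**
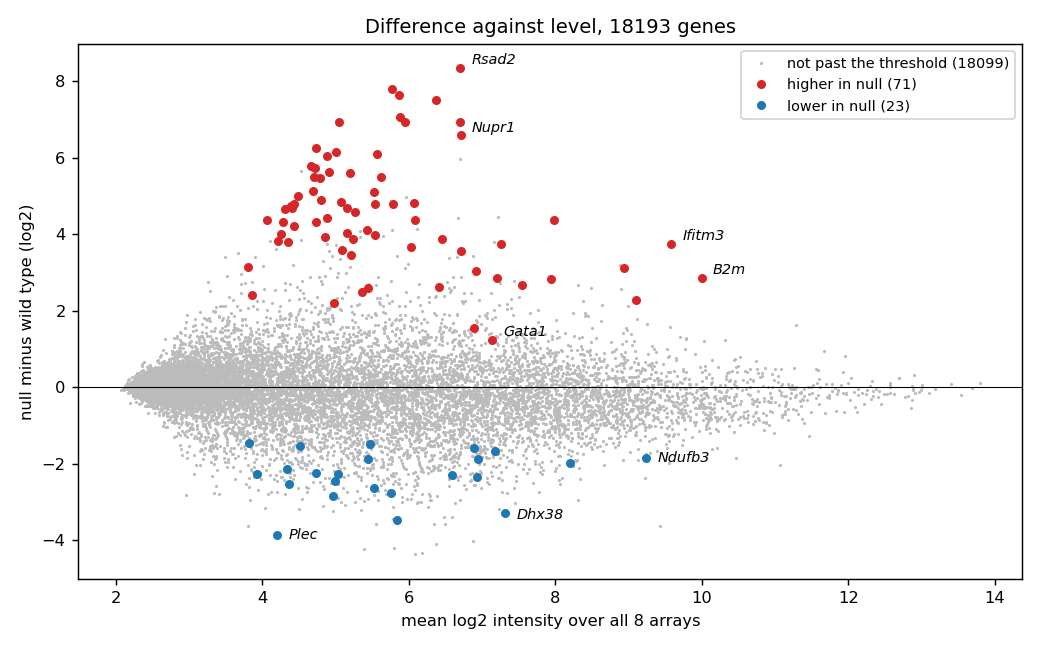
Difference between null and wild type (vertical axis, log2) against the mean log2 intensity over all 8 arrays (horizontal axis), 1 point per gene for 18193 genes; red points are the 71 genes that rose and blue points the 23 that fell. The risers reach up to 8.34 for Rsad2; 32 of the 71 are among the 4549 brightest genes, whose median is -0.27, and the other 39 among the 4548 next brightest.

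The 12 largest rises were mostly antiviral and antigen-presentation genes. Rsad2, which encodes viperin, an enzyme that makes a chain-terminating nucleotide, read 10.3 and 12.3 on the wild-type arrays and 4327, 6054 and 1856 on the null arrays, a rise of 323-fold (8.34 ± 0.58 log2 units, adjusted p = 0.00447). Every null array lay far above both wild-type arrays. Ifit1 and Ifit3 encode proteins that bind foreign RNA ends and block their translation. Ifit1 read 7.11 and 7.40 in wild type and 707, 3817 and 1549 in null (7.80 ± 0.62, adjusted p = 0.00722). Ifit3 read 8.81 and 8.40 and 2643, 1371 and 416 (7.06 ± 0.70, adjusted p = 0.0165). The order of the null arrays differed between these neighbouring genes, with array 1 lowest for Ifit1 and highest for Ifit3. Isg20, a nuclease that degrades single-stranded RNA, stood at 8.34 and 6.01 in wild type and at 2346, 1259 and 929 in null. Rnf213, a large ubiquitin ligase, stood at 7.04 and 8.95 and at 1402, 1877 and 1118. The null values of both genes were of 1 order of size over the mice, and the groups were far apart.

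Bst2, or tetherin, which holds budding viruses at the cell surface, went from 10.7 and 17.3 to 2866, 1012 and 1576. Psmb9, a catalytic subunit of the immunoproteasome, went from 8.65 and 7.52 to 1499, 1081 and 579. Usp18, which strips ISG15 off proteins and also damps the interferon receptor, went from 6.61 and 8.18 to 541, 688 and 374. In each of these genes the null arrays lay well apart from the wild-type arrays, and among them Usp18 had the smallest standard error (6.14 ± 0.27, adjusted p = 0.000753). Immunity-related GTPases, which attack the membranes around intracellular pathogens, gave 3 of the 12. Iigp1 was at background on both wild-type arrays (5.65 and 5.73) and read 948, 893 and 405 in null, at least 92.1-fold higher, where the bound is taken against the background of the wild-type arrays. Igtp, likewise at background in wild type (5.48 and 4.95), read 305, 744 and 279.8 in null, at least 52.5-fold higher. Irgm2 read 15.2 and 6.66 and 678, 983 and 494, which is 68.5-fold. Wild-type array 2 was at background for Irgm2, so this fold rests in part on a background value. The same held for 1 wild-type array in Ifit1, Isg20, Rnf213, Psmb9 and Usp18. The last of the 12, Nupr1, is a stress-induced nuclear protein and belongs to no interferon list; it read 7.10 and 39.7 in wild type and 1978, 1541 and 1361 in null. Its wild-type arrays were uneven, and its adjusted p of 0.0395 was the weakest of the 12. Of 57 other probe sets for the 71 risers, 51 were higher in null, 14 of them past the threshold, and 0 passed as lower.

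**Figure D2:**
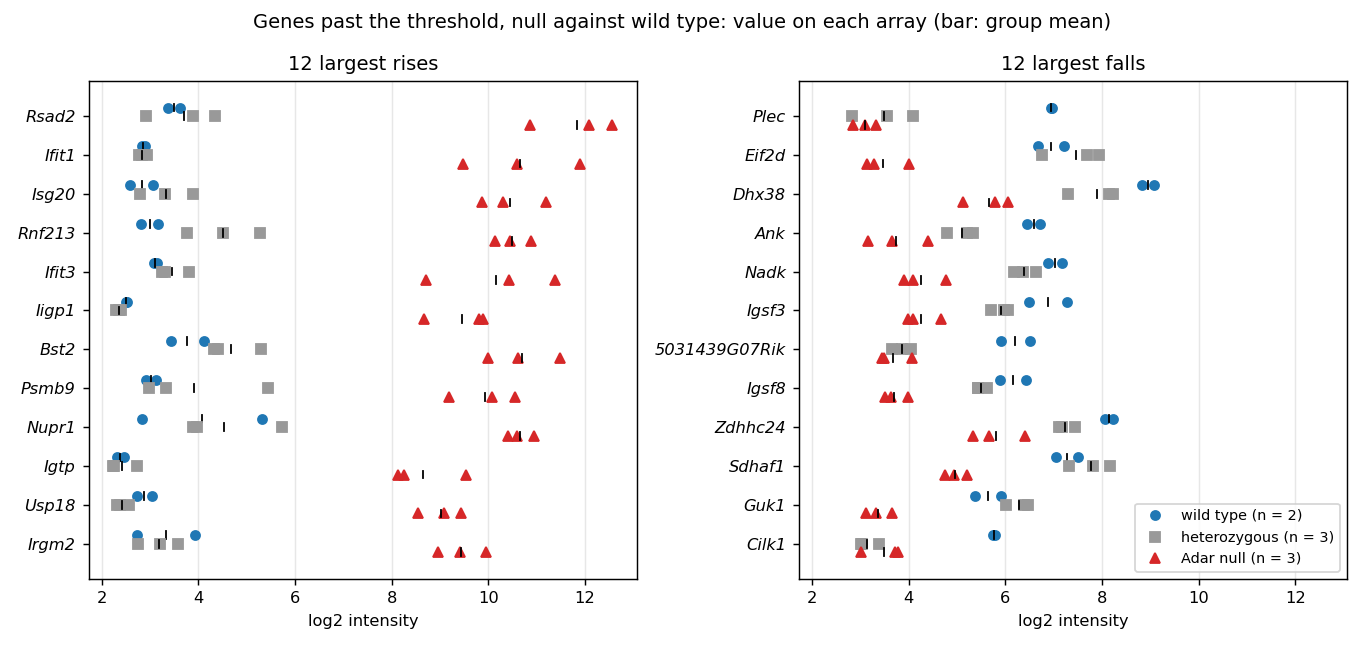
Log2 intensity on each array (horizontal axis) for the 12 genes with the largest rise and the 12 with the largest fall past the threshold; blue circles are wild-type, grey squares heterozygous and red triangles null arrays, and black bars group means. All null arrays stand to the right of the other 5 for the rises, while for Plec, 5031439G07Rik and Cilk1 the heterozygous arrays lie with the null arrays.

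Among 69 measured type I interferon-induced genes, 36 rose and 0 fell, against 0.39% and 0.126% of all genes. Their median difference was 4.11 (4.02 with genes at background set to their bound), where the median over all genes was -0.00013. Of the 69, 68 had a higher mean in null, against 49.99% of all genes. A gene's probe set was chosen by its mean over all arrays, the null ones included, so one that is high in null could be taken. With the mean of a gene's probe sets the list median was 3.40. The null and wild-type arrays did not overlap, with null higher, for 58 of them, against 9.49% of all genes. The list was assembled with earlier results of these data known, so its count is a description. Mx1 and Mx2, of the Mx family of GTPases, read 9.25 and 8.62 and 6.50 and 5.46 in wild type and 145, 477 and 267 and 482, 329.7 and 225 in null. Ifitm3, which blocks the entry of viruses through endosomes, was already clear in wild type at 272 and 229.9 and reached 3483, 3679 and 2978 in null. Its standard error was among the smallest of the rises (3.75 ± 0.16, adjusted p = 0.000753). Of members that did not pass, Oas1a (5.96 ± 0.84, adjusted p = 0.0612), Cxcl10 (5.66 ± 0.79, 0.0573), Ube2l6 (5.42 ± 1.25, 0.259) and Ifit2 (4.98 ± 0.67, 0.0520) had the largest differences. Their null arrays lay above both wild-type arrays but spread widely, as with Ube2l6, which read 32.8, 599 and 590.0 in null and 5.16 and 5.40 in wild type.

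The count of interferon-induced genes past the threshold depended on the arrays used for the spread. It was 36 with all arrays, 16 without wild-type array 2, 23 and 22 without heterozygous arrays 1 and 3, and 2 when the heterozygous arrays were left out altogether; a pseudocount of 32 left 12. The directions did not change in these settings for the members named here.

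The families within this response were uneven in how many members passed. Sensors of foreign or double-stranded nucleic acid had 5 of 20 measured members past the threshold, all higher; 2 were lower at an unadjusted p under 0.05, Irf3 (-1.55 ± 0.38, adjusted p = 0.300) and the adaptor Ticam1 (-1.19 ± 0.33, 0.385), both named after their values were seen. Ifih1, which encodes MDA5, read 23 and 19.8 in wild type and 433, 1039 and 456 in null (4.79 ± 0.53, adjusted p = 0.0254). Eif2ak2, which encodes PKR, read 120.0 and 77.9 and 702, 805 and 407 (2.66 ± 0.35, adjusted p = 0.0475). Both genes were expressed above background in wild-type cells, and their groups did not overlap. Zbp1, a sensor of left-handed double-stranded nucleic acid, was at background in wild type and rose at least 15.7-fold. Dhx58, the MDA5 partner LGP2, rose at least 14.8-fold and the helicase Ddx60 at least 22.3-fold. Ddx58, which encodes RIG-I, was higher by 4.09 ± 0.61 without passing (adjusted p = 0.0731). Among the other members, Tlr3 (3.84 ± 1.28), Cgas (2.54 ± 0.72) and Myd88 (1.94 ± 0.53) did not pass, and their null values spread widely, as with Tlr3 (235, 456 and 17.1).

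The family of 2-5A synthetases, taken with RNase L, which the 2-5A messenger activates, had 3 of 10 measured members past the threshold. These were Oas3, at least 36.4-fold higher, Oasl2, at least 44.7-fold, and Oas1c, at least 20.1-fold. Of the ISG15 system, which tags proteins with a ubiquitin-like modifier, 2 of 5 measured members rose, Usp18 and the ligase Herc6 (10.2 and 7.50 against 577, 406 and 264). The median of the 5 was 5.42, or 2.98 with a pseudocount of 32 and 3.54 with the mean of a gene's probe sets. The PARP family and its partner Dtx3l had 5 of 14 members past the threshold. Parp14, at least 42.04-fold, was followed by Dtx3l (4.81 ± 0.23), Parp9 (4.80 ± 0.61), Parp12 (4.68 ± 0.37) and Parp11 (2.60 ± 0.19). Parp9 and Dtx3l form a complex and lie side by side in the genome in opposite orientation. Antiviral TRIM ubiquitin ligases had 3 of 12 past it, Trim30a (5.0 ± 0.65), Trim34a (3.94 ± 0.39) and Trim30d, at least 7.12-fold. The Trim30 and Trim34 genes belong to a cluster of near copies, so probe sets may share targets. The Schlafen family, growth and RNA regulators, had 3 of 9, with Slfn5 at least 42.8-fold, Slfn2 at least 12.6-fold and Slfn9 13.3-fold higher. Among guanylate-binding proteins Gbp7 alone passed of 6 (27.4 and 38.5 against 350.2, 907 and 348). The 8 measured PYHIN proteins, sensors of DNA in cytosol and nucleus, had 0 past the threshold by limma and 2 at an unadjusted p under 0.05, with a median of 0.12. Of these 8 genes, 6 were at background on both wild-type arrays and 4 on all 5 arrays.

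Of 14 measured interferon regulatory factors and STATs, 2 rose and 0 fell. Irf7, the factor that amplifies interferon production, read 7.11 and 6.51 in wild type and 249, 175 and 632 in null. Stat2, a part of the complex that binds the response element, read 7.05 and 5.79 and 127, 135 and 99.8, at least 15.7-fold higher, with a small error (4.22 ± 0.19, adjusted p = 0.000828). Irf1 (3.22 ± 0.46, adjusted p = 0.0652) and Irf9 (2.89 ± 0.43, 0.0748) were higher without passing. Stat5a, which carries signals of several blood cytokines, had the most negative difference of the 18193 genes, -4.38 ± 0.67, with 361 and 313 in wild type and 24.2, 26.7 and 6.57 in null, and did not pass either (adjusted p = 0.0789). Irf8, a myeloid factor, was at background on every null array and its difference of -1.997 ± 0.89 did not pass.

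The genes that make and receive interferon differed little beside those that answer it. Of 19 measured ligands, receptors and kinases of the receptor, 0 passed by limma and 1 was higher at an unadjusted p under 0.05, with a median of 0.10. However, 8 of the 19 were at background on both wild-type arrays and 5 on all 5 arrays, so the small median is in part one of undetected genes. Ifnb1, the gene of interferon beta, read 6.17 and 5.08 in wild type and 43.2, 11.8 and 9.51 in null (adjusted p = 0.595). Null array 1 was the brightest and the other null arrays were close to background. Of 17 SOCS proteins and other brakes on cytokine signalling 1 rose, Usp18, and the median was -0.06. Of 27 NF-kappaB subunits and inflammatory targets, 0 passed by limma and at an unadjusted p under 0.05 there were 0 higher and 2 lower, with a median of 0.06. Of 20 chemokines 14 were at background on both wild-type arrays and 7 on all 5 arrays. By limma 0 of the 20 passed, and 1 was higher and 2 lower unadjusted. The higher one was Cxcl10, a chemokine that interferon induces, at background in wild type (5.52 and 5.57) and at 773, 319.7 and 88.8 in null.

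Antigen presentation on MHC class I rose in part. Of 9 measured heavy chains, B2m and Nlrc5, 4 rose. B2m, the light chain of every class I molecule, read 540.5 and 299 in wild type and 2706, 3296 and 2703 in null (2.85 ± 0.28, adjusted p = 0.0165). H2-K1, a classical heavy chain, read 129.6 and 91.1 and 794, 807 and 724 (2.83 ± 0.21, adjusted p = 0.00605). The null values of both were even over the mice and did not overlap with wild type. Nlrc5, the transactivator of class I genes, went from 6.54 and 8.30 to 102, 103 and 102, nearly the same value on each null array. The non-classical H2-T24 went from 10.9 and 31 to 594, 309.8 and 299. H2-D1 and H2-M3 differed by 0.83 ± 0.39 and 1.91 ± 0.81 without passing; class I heavy chains are similar in sequence, so their probe sets may read one another. Of 12 genes of the immunoproteasome and peptide loading, Psmb9 alone passed. Its neighbours in function Tapbp (4.45 ± 0.72), Psmb8 (3.44 ± 0.85), Tap1 (2.70 ± 0.48) and Psmb10 (2.46 ± 0.63) were higher with adjusted p from 0.0976 to 0.328. Of 10 MHC class II genes, which mark professional antigen-presenting cells, 0 passed by limma and 0 had an unadjusted p under 0.05, and 5 were at background on both wild-type arrays.

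**Figure D3:**
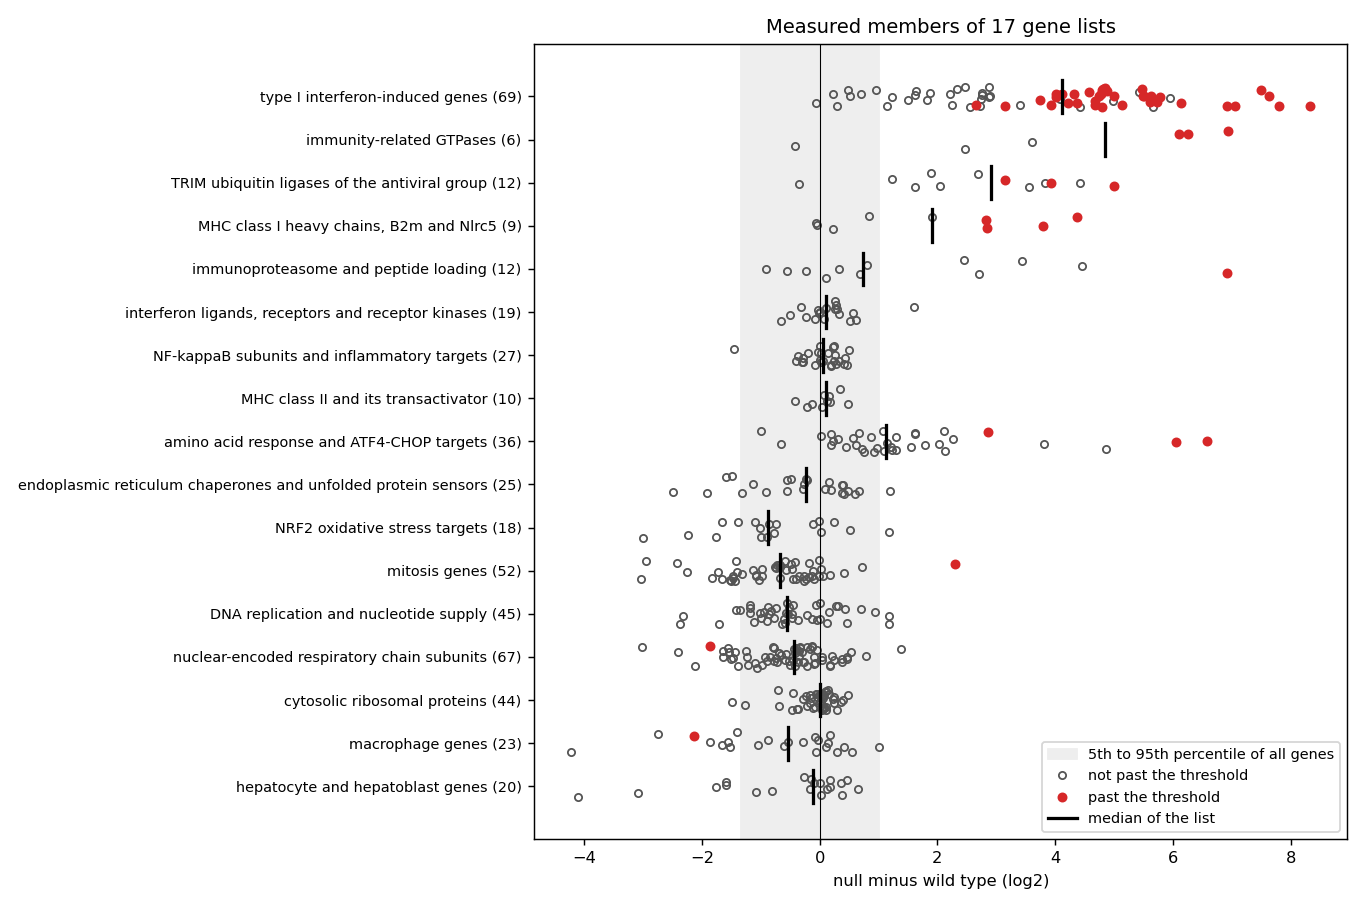
Difference between null and wild type (horizontal axis, log2) for the measured members of 17 gene lists, with the number measured in brackets; filled red points passed the threshold, open points did not, black bars are list medians, and the grey band holds the 5th to 95th percentile of all genes (-1.34 to 1.01). The interferon-induced list has a median of 4.11, the amino acid response list 1.12, and the mitosis list -0.68.

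Promoter sequence was examined because so many of the risers are interferon targets. RefSeq promoters of build GRCm38.p6, 250 bases before to 50 after each start, were matched by symbol for 57 of the 71 risers and 19 of the 23 that fell. The core of the interferon-stimulated response element, searched on both strands as GAAA, any pair of bases and GAAA again, was in 24 of the 57 (42.11%), in 0 of the 19, and in 3.443% of all 32851 windows. For a gene with several windows a match in any counted; counted by gene, 3.626% of 14452 measured genes held it. The gamma-activated site, searched as TTCNNNGAA, was in 11 of the 57 (19.3%), in 0 of the 19 and in 8.298% of all windows. The 2 motifs can share bases where GAAA follows TTC at the right distance. A match is a run of letters and not a tested binding site. The following stretches, upstream of the start and written 5′ to 3′ on the strand of the gene, are shown because they belong to the 11 highest risers among the named genes with a match upstream; capitals mark the motif in either orientation, so TTTC runs read as GAAA on the other strand.

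Rsad2, chr12:26456538-26456597, minus strand: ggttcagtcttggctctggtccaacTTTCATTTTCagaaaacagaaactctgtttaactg

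Ifit1, chr19:34640779-34640838, plus strand: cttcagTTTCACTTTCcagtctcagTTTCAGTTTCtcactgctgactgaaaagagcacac

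Ifit3, chr19:34583382-34583441, plus strand: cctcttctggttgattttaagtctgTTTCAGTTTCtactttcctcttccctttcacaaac

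Bst2, chr8:71537562-71537621, minus strand: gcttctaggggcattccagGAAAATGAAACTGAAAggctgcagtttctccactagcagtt

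Igtp, chr11:58199497-58199555, plus strand: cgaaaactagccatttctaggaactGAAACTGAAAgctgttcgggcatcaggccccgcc

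Irgm2, chr11:58214888-58214947, plus strand: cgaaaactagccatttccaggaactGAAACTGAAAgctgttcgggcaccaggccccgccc

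Slfn5, chr11:82951922-82951981, plus strand: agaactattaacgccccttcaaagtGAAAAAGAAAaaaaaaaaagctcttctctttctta

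Oas3, chr5:120777700-120777759, minus strand: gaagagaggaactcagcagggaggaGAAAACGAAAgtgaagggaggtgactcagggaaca

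Trim30a, chr7:104465195-104465254, minus strand: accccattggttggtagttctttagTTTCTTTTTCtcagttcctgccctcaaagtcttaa

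Ddx60, chr8:61928043-61928086, plus strand: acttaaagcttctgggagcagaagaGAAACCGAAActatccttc

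Oas1c, chr5:120812588-120812647, minus strand: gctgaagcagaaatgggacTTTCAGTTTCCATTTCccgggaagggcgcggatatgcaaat

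Ifit1 shows 2 separate copies, and Bst2 and Oas1c show 2 copies that overlap, so that GAAA recurs at a regular distance. The stretches of the GTPase genes Igtp and Irgm2 were identical at 57 of 59 bases. Of the largest rises without such a core, Isg20 held a gamma-activated site, and Nupr1 held that and the element described with the stress genes.

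Genes of the amino acid and ATF4-CHOP response had mostly higher means in null cells, and few passed the threshold. Of 36 measured, 3 rose and 0 fell, against 0.39% and 0.126% of all genes. A higher mean in null was found for 34 of the 36, against 49.99% of all genes. The median difference was 1.12, or 0.70 with a pseudocount of 32 and 0.77 with the mean of a gene's probe sets. Trib3, a pseudokinase that restrains ATF4 and AKT, was at background on both wild-type arrays (5.32 and 5.69) and read 298, 434 and 379.8 in null, at least 48.2-fold higher (6.06 ± 0.36, adjusted p = 0.00257). Ddit3, the transcription factor CHOP, read 95.2 and 44.7 and 453, 357 and 659 (2.86 ± 0.38, adjusted p = 0.0475). Nupr1, described above, was the third. A second probe set of Trib3 differed by only 1.19 ± 0.62 and did not pass (adjusted p = 0.734), while a second one of Nupr1 did pass (5.73 ± 0.50, adjusted p = 0.0102). Atf4 itself, the transcription factor of this response, read 361 and 335 in wild type and 937, 792 and 696 in null, with no overlap, and stayed just outside the threshold (1.21 ± 0.17, adjusted p = 0.0573); it was named after its values were seen. Of the members that did not pass, Atf5 (4.87 ± 0.76, adjusted p = 0.0830), Ddit4 (3.81 ± 0.86, 0.248), Sesn2 (2.26 ± 0.55, 0.296) and Ppp1r15a (2.13 ± 0.92, 0.668) had the largest differences. Atf5 was near background in wild type at 7.83 and 9.07 and read 439, 245 and 139 in null. At the other end Phgdh, which starts serine synthesis and was chosen after its value was seen, was lower by 0.99 ± 0.35 without passing.

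The amino acid response element, searched as TGATGNAA on both strands, was in the promoters of 10 of 29 of these genes (34.48%) and in 3.969% of all windows. Counted by gene, 3.238% of 14452 measured genes held it. So did 7 of 55 type I interferon-induced genes (12.73%) and 6 of 57 risers (10.53%). Nupr1 is shown as the highest riser of the amino acid response list, with the element in capitals.

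Nupr1, chr7:126625548-126625605, minus strand: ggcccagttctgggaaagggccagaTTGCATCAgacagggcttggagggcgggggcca

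**Figure D4:**
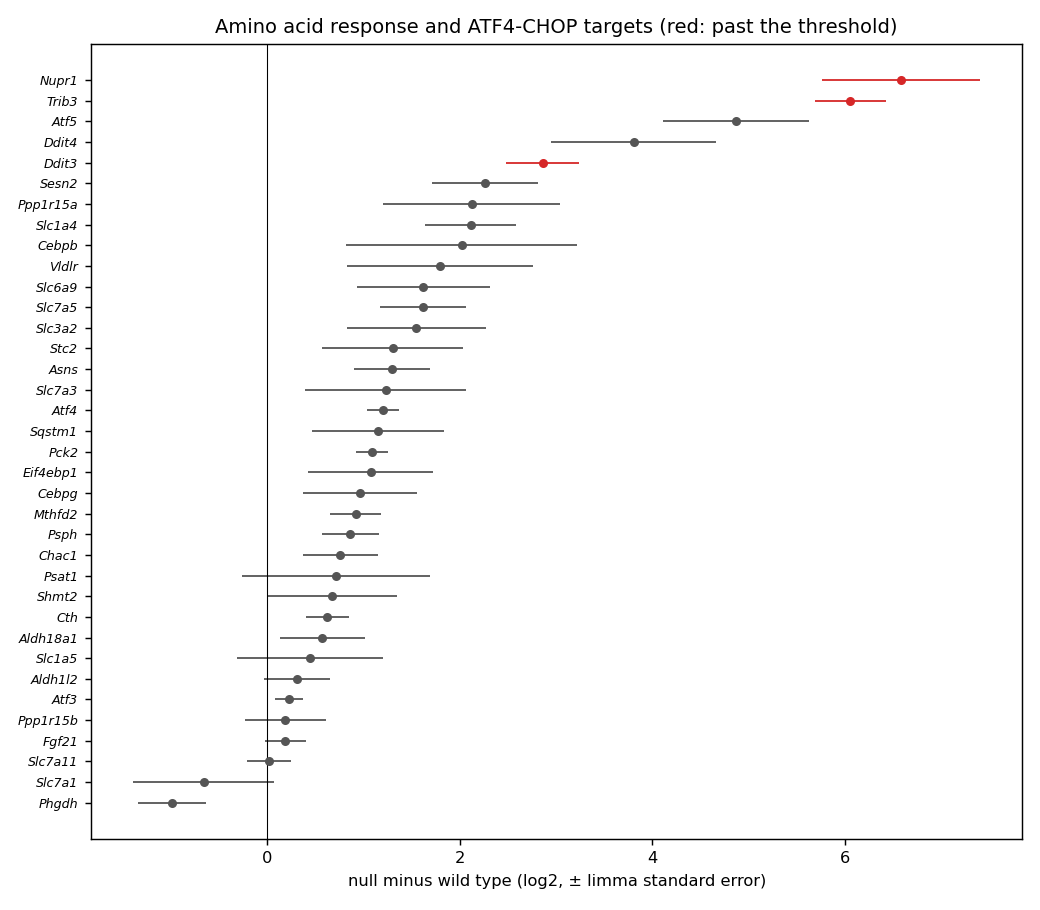
Difference between null and wild type with limma's standard error (horizontal axis, log2) for each of the 36 measured genes of the amino acid and ATF4-CHOP response, in order of size; red marks the 3 past the threshold. Nupr1 and Trib3 lie above 6, Ddit3 at 2.86, and all but 2 genes, Slc7a1 and Phgdh, lie to the right of 0.

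Related stress genes gave 1 call, and their medians lay on both sides of 0. Of all 18193 genes, 9095 had a higher and 9098 a lower mean in null. Chaperones and unfolded protein sensors of the endoplasmic reticulum had 0 of 25 past the threshold by limma, with 2 higher and 2 lower unadjusted and a median of -0.24, which was 0.0037 with cyclic loess normalization and -0.031 with the mean of a gene's probe sets. Derl2 (-1.91 ± 0.40) and Edem1 (-2.48 ± 1.13), both of the degradation pathway of that compartment, had the most negative differences. Cytosolic aminoacyl-tRNA synthetases, several of which ATF4 controls, had 0 of 21 past it, with 4 higher and 1 lower unadjusted; 18 of the 21 had a higher mean in null, with a median of 0.50, where the 4549 brightest genes, to which all 21 belong, had one of -0.27, and Iars led with 2.67 ± 0.66. Cytosolic heat shock proteins had 0 of 17 past it, 0 higher and 2 lower unadjusted, and a median of 0.08. That median was 0.04 and -0.13 without wild-type arrays 1 and 2, and -0.10, -0.18 and 0.12 without null arrays 1, 2 and 3. NRF2 targets, which answer oxidative stress, had 0 of 18 past it and 0 higher and 6 lower unadjusted, with 14 lower means and a median of -0.87 (-0.54 with the mean of a gene's probe sets); Gclc, the enzyme that limits glutathione synthesis, read 115 and 120.1 in wild type and 34.2, 10.2 and 8.96 in null (adjusted p = 0.169). Of 11 eIF2 kinases and subunits of eIF2 and eIF2B, Eif2ak2 alone passed, and the median was 0.34. Its sign depended on single arrays, with -0.31 without wild-type array 2 and -0.05 without null array 2. Without each of the other wild-type and null arrays it was 0.30 to 0.61.

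Cell death genes moved singly. Xaf1, an interferon-induced antagonist of a caspase inhibitor, rose from 13.2 and 10.4 to 492, 411 and 187 (4.84 ± 0.44, adjusted p = 0.0109) and was the 1 of 26 death receptors, ligands and caspases past the threshold. Daxx (2.89 ± 0.62) and Tnfsf10, the death ligand TRAIL (1.51 ± 0.38), were higher and Fadd (-2.33 ± 0.82) and Apaf1 (-1.57 ± 0.35) lower without passing. Of 14 necroptosis and pyroptosis genes Zbp1 alone rose; Mlkl, the pore-forming effector of necroptosis, differed by 2.56 ± 0.53 (adjusted p = 0.212). Of 17 Bcl2 family genes 0 passed by limma, with 3 higher and 1 lower unadjusted. Of 28 p53 targets 0 passed by limma, with 3 higher and 4 lower unadjusted and a median of 0.06; the sestrins went apart there, Sesn1 at -2.99 ± 0.57 and Sesn2 at 2.26 ± 0.55.

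Outside the interferon and stress lists the risers were of varied function. Zup1, a protease that cuts long ubiquitin chains, read 15.9 and 14.3 in wild type and 261, 211 and 200.01 in null (3.88 ± 0.16, adjusted p = 0.000753). Vps37b, a subunit of the sorting complex ESCRT-I, read 35.2 and 37.7 and 571, 503 and 277. Samhd1, which destroys deoxynucleotides and is known to restrict viruses, read 34.4 and 72.4 and 1827, 1028 and 589 and is in no list used here. Heterozygous cells read 228, 179 and 149 for Samhd1. In all of these genes the null and wild-type groups lay far apart. The editing relative Apobec1, a cytidine deaminase of RNA, rose from 9.56 and 18.3 to 238, 314 and 124 (3.99 ± 0.48, adjusted p = 0.0350) and was the 1 of 11 editing enzymes and relatives to pass. Adar itself was higher in the null arrays, 59.7, 144 and 176 against 7.66 and 17.6 (3.31 ± 0.55, adjusted p = 0.105), without passing; where its probe set lies relative to the removed exons is not known from the labels, and its level is no check of the genotype. Of 21 transcripts with known recoding sites 0 passed by limma and 0 had an unadjusted p under 0.05, with a median of 0.00.

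Some rises were shared by the heterozygous arrays. For 22 of the 71 risers all 3 heterozygous arrays lay above both wild-type arrays. For 5 of the 71, Smn1, Gm32031, Cab39, Taf1d and Gata1, the heterozygous mean was nearer to null than to wild type. Smn1, which encodes the assembly factor of splicing particles, read 17.97 and 7.58 in wild type, 99.7, 73.3 and 103 in heterozygous and 188, 126 and 139 in null cells. Cab39, a scaffold of the kinase LKB1, read 42.02 and 22.7, 201, 97.2 and 159 and 242, 206 and 318. In both the wild-type arrays were the ones apart. Taf1d differed by 1.54 ± 0.16 on its brightest probe set and by -0.32 in the mean of its probe sets. For these genes a difference of the 2 wild-type arrays from all others and a step with gene dose cannot be told apart.

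Of the blood lineage lists, those of erythroid and of myeloid genes held calls. Over all genes 0.39% rose and 0.126% fell, and at an unadjusted p under 0.05 by limma 3.37% were higher and 5.91% lower. Gata1, the factor of the erythroid and megakaryocyte lineages, read 86.8 and 82.1 in wild type and 181, 204 and 214 in null (1.24 ± 0.15, adjusted p = 0.0355), and Uros, an enzyme of haem synthesis, fell from 20.1 and 23 to 7.77, 8.13 and 7.45, close to background. These were the 2 of 31 erythroid and haem genes past the threshold. Ermap, a red cell surface protein, was lower by 2.42 ± 0.60 without passing. Of 31 myeloid and granule genes 2 rose: Plac8 (9.04 and 6.87 against 296, 433 and 156) and Csf2rb, the shared beta chain of the receptors for IL-3, IL-5 and GM-CSF (6.51 and 11.6 against 121, 145 and 291). Its near copy Csf2rb2 was higher by 3.75 ± 0.79 without passing (adjusted p = 0.213), and the 2 genes may share probes. The granule and myeloid genes Lyz2 (151 and 214 against 27.6, 20.5 and 30.6; adjusted p = 0.0779) and Fcgr3 (-2.13 ± 0.40) were lower without passing. Of 36 stem cell transcription factors 0 passed by limma, with 6 higher and 2 lower unadjusted and a median of -0.07; Egr1, an early response factor linked to stem cell quiescence, had the largest difference (11.7 and 13.4 against 178, 198 and 69.2, adjusted p = 0.150). Of 28 stem cell surface genes 0 passed by limma, with 5 higher and 2 lower unadjusted and a median of 0.17. Of 18 genes of the fetal stem cell program 0 passed, with 0 higher and 1 lower unadjusted, Igf2bp3 (-2.54 ± 0.70), and of 18 Hox cluster genes 0 passed and 0 had an unadjusted p under 0.05. Megakaryocyte genes (17), lymphoid genes (22) and mast cell genes (13) had 0 past the threshold by limma, with 2, 0 and 0 members higher and none lower unadjusted.

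Markers of macrophages and hepatocytes had lower sums in the null arrays, and those of endothelial and megakaryocyte cells did not. The summed level of 23 macrophage genes was 506.8 and 1227 in wild type and 261 to 388.8 in null, and 13 of them were at background on both wild-type arrays or on all null arrays. Maf, a macrophage transcription factor, was the 1 that passed (29.9 and 24.05 in wild type, at background at 7.16, 4.37 and 7.22 in null, at least 3.25-fold lower). No other probe set of Maf passed. They differed by -2.05, -1.22, -0.44, 0.43 and 0.44. The probe sets at -2.05 and -1.22 were high on wild-type array 1 only (75.9 and 5.78, and 30.5 and 5.49, in wild type). The complement genes C1qb (58.1 and 434 against 8.75, 7.79 and 9.09; adjusted p = 0.163) and C1qc (17.4 and 152 against 8.13, 7.30 and 7.69) were at or near background in null and uneven in wild type, while the defining marker Adgre1, chosen after its values were seen, was at background on all 5 arrays. The macrophage median of -0.53 was -0.26 without wild-type array 1, -0.15 without wild-type array 2, -0.20 without null array 2, -0.16 with a pseudocount of 32 and -0.28 with the mean of a gene's probe sets. The summed level of 20 hepatocyte and hepatoblast genes was 341.5 and 704.1 in wild type and 143.2 to 181.5 in null. Afp (75.9 and 321 against 22.9, 4.79 and 6.75) and Alb (66.98 and 145 against 16.8, 13.7 and 6.73; adjusted p = 0.0840) carried most of that, and 0 of the 20 passed by limma, with 0 higher and 3 lower unadjusted; 9 of the 20 had a higher mean in null, and the median was -0.12. The summed level of 22 endothelial and stromal genes was 1743 and 1517 in wild type and 2080, 2296 and 1555 in null, with 12 higher and 10 lower means, 0 past the threshold by limma and 4 higher and 3 lower unadjusted, and that of the 17 megakaryocyte genes was 15540 and 14710 against 14960, 17080 and 18290. In such bulk samples fewer cells of a type and less RNA per cell cannot be told apart. The part of these cells in the genes that fell was not tested.

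The 12 largest falls came from genes with little in common. Plec, a linker of the cytoskeleton, read 123 and 125 in wild type and 10.1, 8.56 and 7.19 in null, where background was 7.40 to 9.29, and its heterozygous arrays were low too (17.1, 7.11 and 11.8). Eif2d, which recycles and initiates at ribosomes without eIF2, read 102 and 148 in wild type and 8.79, 16.2 and 9.67 in null, and 244, 109 and 207 in heterozygous cells. Dhx38, a splicing helicase, read 538 and 456 and 54.97, 66.1 and 35.03. The groups were apart by 3.86, 3.47 and 3.30 log2 units in these genes, with adjusted p of 0.0121, 0.0371 and 0.0266. Of these genes Eif2d had heterozygous arrays at or above the wild-type level; other probe sets of Eif2d and Plec did not pass.

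Ank, which exports pyrophosphate, read 87.7 and 106 in wild type and 8.98, 21.2 and 12.5 in null. Nadk, which makes NADP from NAD, read 144 and 118 and 17.03, 27.5 and 15.02. Both genes were lower on every null array, by 2.85 ± 0.37 and 2.77 ± 0.29 log2 units. Of the immunoglobulin-fold surface proteins, Igsf3 read 155 and 90.1 and 16.9, 25.5 and 15.9, and Igsf8, a partner of tetraspanins, 59.6 and 85.6 and 12.3, 15.7 and 11.4. Igsf8 (-2.45 ± 0.22, adjusted p = 0.0106) was the fall that passed without each array in turn. The transcript 5031439G07Rik read 59.9 and 91.3 and 16.9, 10.9 and 11.2. Zdhhc24, of the family of protein palmitoyltransferases, read 269 and 299 and 50.9, 84.7 and 40.02, and at an adjusted p of 0.0499 it was the call nearest to the threshold. Sdhaf1, an assembly factor of respiratory complex II, read 132 and 181 and 36.8, 27.03 and 30.6. Guk1, the guanylate kinase, read 41.5 and 59.9 and 10.03, 12.7 and 8.70. Cilk1, a kinase of the cilium, read 54.96 and 53.3 in wild type, 8.08, 8.24 and 10.4 in heterozygous and 13.1, 13.7 and 8.05 in null. All 3 heterozygous arrays lay below both wild-type arrays for 11 of the 23 falls. The heterozygous mean was nearer to null than to wild type for 6 of the 23, Plec, Ank, 5031439G07Rik, Cilk1, Supt3 and Wasf1. Wasf1 was lower still in heterozygous cells (28.3, 23.6 and 26.2) than in null (36.4, 31.3 and 38.3) against 106 and 157 in wild type. Of 29 other probe sets of the 23 genes, 16 were lower in null and 0 passed as lower, so the falls had less support between probe sets than the rises.

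Growth and energy genes leaned lower as groups with almost no single call. Bright genes in general did so: of the 4549 brightest genes by mean level over all arrays, 63.71% were lower in null and the median was -0.27, against 0.05 or closer to 0 in each of the 3 dimmer groups of like size. Of 52 measured mitosis genes 1 rose and 0 fell, 46 had a lower mean in null, and the median was -0.68, or -0.71 for the 44 among the 4549 brightest. The 1 that rose was Pttg1, or securin, a regulator of sister chromatid separation. It read 225 and 238 in wild type and 1379, 1118 and 944 in null (2.29 ± 0.18, adjusted p = 0.00722). It passed without each array in turn and went against the lean of its list. Its heterozygous arrays read 484, 448 and 478, above both wild-type arrays. Other probe sets of Pttg1 did not pass by limma. They differed by 0.57 ± 0.58 with overlapping groups (adjusted p = 0.857) and by 2.39 ± 0.66 (adjusted p = 0.377). Kif2c (-3.03 ± 0.71), Cdc25c (-2.95 ± 0.84), Aurka (-2.42 ± 0.82) and Melk (-2.25 ± 0.49) were lowest without passing. Of 45 DNA replication and nucleotide supply genes 0 passed by limma, with 3 higher and 11 lower unadjusted and a median of -0.56; Rrm2, a subunit of ribonucleotide reductase, read 823 and 2329 and 192, 425 and 238. Of 29 G1 cyclins, Cdks and their inhibitors 0 passed, with 2 higher and 3 lower unadjusted.

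Of 67 nuclear-encoded respiratory chain subunits 0 rose and 1 fell, 54 had a lower mean, and the median was -0.43. The 1 was Ndufb3 of complex I, 1047 and 1009.8 in wild type and 285, 346 and 231 in null (-1.86 ± 0.21, adjusted p = 0.0254). Ndufa3 (-3.02 ± 0.65) and Uqcr11 (-2.40 ± 0.73) were lower without passing. Glycolysis genes had 0 of 19 past the threshold by limma, 0 higher and 9 lower unadjusted, and a median of -0.63, led by Pfkm (257 and 118 against 15.3, 35.04 and 18.2, adjusted p = 0.100). Constitutive proteasome subunits had 0 of 31, 0 higher and 5 lower unadjusted, and a median of -0.50, with Psmd11 nearest to the threshold (-1.79 ± 0.25, adjusted p = 0.0551). Sterol and fatty acid synthesis genes had 0 of 29, 1 higher and 4 lower unadjusted, and a median of -0.68. Lysosomal genes had 0 of 33, 3 higher and 6 lower unadjusted, and a median of -0.09; Ctss, a protease of antigen-presenting cells, was the lowest of them (-2.41 ± 0.33, adjusted p = 0.0551). Spliceosome genes had 0 of 47, 2 higher and 9 lower unadjusted, and a median of -0.31. Of 35 translation initiation factors Eif2d alone passed, and the median was -0.33. Cytosolic ribosomal proteins stood apart from this lean, with 0 of 44 past the threshold by limma, 2 higher and 3 lower unadjusted, and a median of 0.01, although 38 of them were among the 4549 brightest. Of 52 DEAD and DEAH box helicases 3 rose, the interferon-induced Ifih1, Dhx58 and Ddx60, and 1 fell, Dhx38. Of 13 housekeeping genes B2m alone passed, and the median of the 13 was -0.37. Without null array 1 the medians were nearer 0 for replication (-0.18), respiratory chain (-0.29), translation initiation (-0.09), spliceosome (-0.04), sterol (-0.45) and mitosis genes (-0.53), and without null array 2 the housekeeping median was -0.64. Lysosomal genes went from 0.06 without null array 1 to -0.25 without null array 2. With cyclic loess normalization the medians were -0.18 for the respiratory chain, -0.26 for the proteasome, -0.08 for the spliceosome, -0.31 for replication, -0.14 for translation initiation and -0.14 for housekeeping genes. The sterol median was -0.26 with the mean of a gene's probe sets and -0.37 with a pseudocount of 32, which also gave a mitosis median of -0.43. The Gapdh 3′ to 5′ ratio was higher on the null than on the wild-type arrays, as given above, and its part in these medians was not tested.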

How the data were processed

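Gene expression was measured on 8 arrays of sorted fetal liver cells. RNA was prepared with a Qiagen kit and labelled with a Nugen kit, per the labels. The authors deposited linear intensity values per probe set, summarised with RMA per the submitters' processing notes; its version is not given in the sources used here. Log2 was taken without further normalization. The 64 control probe sets of 45101 were not tested; 34945 named a single gene, 932 several and 9160 none, by the platform's annotation (18193 genes). The 3-group linear model was fitted with limma 3.58.1 on R 4.3.3 (lmFit, eBayes without trend; 5 residual degrees of freedom), for null minus wild type, two-sided, adjusted by Benjamini and Hochberg over 45037 probe sets. It was tested on simulated data. Each gene is its brightest probe set by mean log2 over all arrays. Where a group was at background on all its arrays, the fold is a bound against that background. The samples, lists and alternatives were chosen with earlier results of these data known. Values on every array are given for the 12 largest rises and falls past the threshold; of each list, members past it and up to 4 others with the largest difference may be named, as may the sort genes, Adar and genes of the sex chromosomes. Any other gene was picked with its values known, and the text says so. Lists are described by counts and medians, without a test. Replicates are single mice numbered in order of deposit, and their number limits the precision. Promoter sequences are RefSeq's (GRCm38.p6).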

Additional observations from a re-analysis of the deposited data

How the results depend on the processing

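The 36 interferon-induced genes that rose kept their direction in every alternative that tested them; of all 69 measured, 2 turned without wild-type array 1 and 1 each without null arrays 1 and 3. The counts past the threshold moved with how the spread was estimated. With the null and wild-type arrays only, 4 probe sets were higher and 0 lower, by gene 3 and 0, and 2 interferon-induced genes were higher. A pseudocount of 32 gave 40 and 22 probe sets, 29 and 10 genes, and 12 interferon-induced genes. Array weights gave 16 lower probe sets and 5 lower genes, trend and robust variance 11 and 3, and cyclic loess normalization 31 lower probe sets. Leaving out each array in turn gave 53 to 143 higher and 11 to 237 lower probe sets, 35 to 94 higher and 2 to 96 lower genes, and 16 to 42 interferon-induced genes. Quantile normalization, centring on the median, the filters on low values and the mean of a gene's probe sets left these counts within 1.5 times. Directions turned for Taf1d (-0.32) and Slc7a1 (1.06) with the mean of probe sets, for Kif11 (0.080 without wild-type array 1 and 0.087 without null array 1; -0.76 to 0.087 over the arrays left out), and for Eif2s3y without null array 1 (-0.25; -0.25 to 1.96). Actb turned with cyclic loess normalization (0.14) and over the arrays left out (-0.092 to 0.018). The cause was not tested. With a pseudocount of 32 the interferon median was 2.41, and with the mean of a gene's probe sets it was 3.40. Signal over background limits the 17 risers whose wild-type arrays were both at background. It also limits risers with 1 wild-type array at background, such as Irgm2, Ifit1, Herc6, Irf7, Plac8 and Nlrc5. Their differences are not given as bounds. No paired analysis was possible because the labels give no shared replicate numbers.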

Other observations

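Calls on a probe set other than the brightest added 21 genes, 18 lower and 3 higher in null. Mitosis genes were among the lower ones, with Aspm (-2.89 ± 0.30 on the second probe set, adjusted p = 0.0211), Bub1b (-1.94 ± 0.18, 0.0109) and the spindle motor Kif11 (-1.73 ± 0.23, 0.0465). On their brightest probe sets Bub1b and Kif11 differed by -1.51 ± 0.58 and -0.34 ± 0.46 without passing. Trim21, a ubiquitin ligase that binds antibodies inside cells, rose on its dimmer probe set (4.07 ± 0.28, adjusted p = 0.00442) and differed by 4.43 ± 0.60 on its brightest one (adjusted p = 0.0536). Irf3, the factor that sensors activate to start interferon production, was lower on a dimmer probe set (-1.44 ± 0.19, adjusted p = 0.0441). Its brightest probe set differed by -1.55 ± 0.38 (adjusted p = 0.300). Ago2, the slicer of RNA interference, and Syk, a kinase of immune receptors, were also lower on a dimmer probe set (-3.33 ± 0.28 and -2.69 ± 0.34). Genes of this paragraph were chosen after their values were seen.

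Over the 71 risers the median difference from the wild-type mean was 4.34 on null array 1, 4.44 on array 2 and 3.93 on array 3. Null array 3 had the lowest null value for 43 of the 71 genes, against 17 and 11 for the other null arrays. Over the 23 falls the medians were -2.13, -2.01 and -2.37, and array 3 was the lowest for 14 genes. With 1 array per mouse, mouse and array cannot be told apart.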
